A study of Homo sapiens with 2 samples.

Results

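The probe described here was A_24_P250922, which the array maker's catalogue assigns to PTGS2, the gene of cyclooxygenase COX-2. It was 1 of 75149 non-control probes on each of a pair of arrays of THP-1 cells, a human monocytic leukaemia line. The probe was selected on its difference between these same arrays, so its levels, difference and ranks are a description and carry no test. The files give no gene name, no probe sequence and no position in the genome for any probe. The assignment to PTGS2 therefore rests on the catalogue alone, and neither it nor the cell type could be checked against other probes of named genes.

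The control group was 1 array of THP-1 cells that the labels call control, with DMSO named in the treatment text, whereas the study's methods call the cells untreated. The LPS group was 1 array of THP-1 cells treated with lipopolysaccharide (LPS), which is part of the outer membrane of Gram-negative bacteria. The labels give 48 h for both treatments, and no LPS dose is given in the sources used here. Both groups were the same purchased line in the same medium, and RNA was labelled with Cy3 and read in 1 colour. The arrays lay on the same slide and were read in the same scan, but an effect of an array's place on that slide cannot be told apart from one of LPS. With 1 array per condition, no difference had a replicate check, and errors below describe spots or the scanner software, not cultures.

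Cyclooxygenases turn arachidonic acid released from membranes into the precursor from which prostaglandins and thromboxanes are made. PTGS1 is made in many resting tissues, whereas PTGS2 is low in most resting cells and is switched on by inflammatory signals. In monocytes and macrophages LPS is sensed through Toll-like receptor 4, which activates NF-kB and MAP kinases, and PTGS2 is a textbook target of this response. The product best known from activated macrophages is prostaglandin E2, which acts in fever, pain and vascular leak, and COX-2 is the target of anti-inflammatory drugs.

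PTGS2 lies on the minus strand of chromosome 1, at chr1:186671791-186680423 in GRCh38.p14, as annotated by RefSeq. The 250 bases before its annotated start, at chr1:186680424-186680673, are shown because this is the stretch where the transcription factors of the LPS response are known to act on the gene. The sequence is from RefSeq and reads 5′ to 3′ along the gene, and it was not measured on the arrays. Capitals mark every match, on either strand, to the motifs described after it.

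PTGS2 promoter: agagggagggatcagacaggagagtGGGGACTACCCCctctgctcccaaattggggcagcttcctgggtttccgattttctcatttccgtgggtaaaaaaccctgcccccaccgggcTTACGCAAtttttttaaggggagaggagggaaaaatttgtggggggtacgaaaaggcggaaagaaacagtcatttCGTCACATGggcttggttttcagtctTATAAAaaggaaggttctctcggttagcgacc

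The first run of capitals, between 225 and 214 bases before the start, held 4 overlapping matches, on both strands, to the outer letters of NF-kB sites (3 G, any 5 bases, then 2 C). This pattern was present in 54.4% of the 35116 RefSeq promoters of the same length. The next run, TTACGCAA, matched TTNNGNAA, a C/EBP-type motif, on both strands and began 133 bases before the start, and 33.2% of promoters held that motif. The third run joined the core of the cyclic AMP response element, TGACG on the opposite strand, to an E-box, CANNTG, which overlapped it by 2 bases. Of all promoters, 21.2% held TGACG and 61.8% held CANNTG. The TATA box, TATAAA, began 32 bases before the start, and 10.7% of promoters held those letters. Each match is a description of letters in the reference, and the arrays say nothing of what was bound there.

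On the control array, A_24_P250922 was a probe of middling signal, and on the LPS array it was among the brightest. Each array carried 2 spots of the probe, at the same places on both. On the control array the processed signal, which is the scanner software's intensity after background subtraction, was 126.4 ± 12.9 at the first spot and 140.8 ± 14.4 at the second (± the software's error for that spot). On the LPS array it was 10327.5 ± 1033 at the first spot and 9903.3 ± 990.3 at the second. Both LPS spots were far above both control spots, and the lower LPS spot was 70.3 times the higher control spot, before any scaling. The software's error was 10.2% of the signal at both control spots and 10.0% at both LPS spots, and spots with a signal within 0.5 (log2) of theirs had the same median errors.

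**Figure D1:**
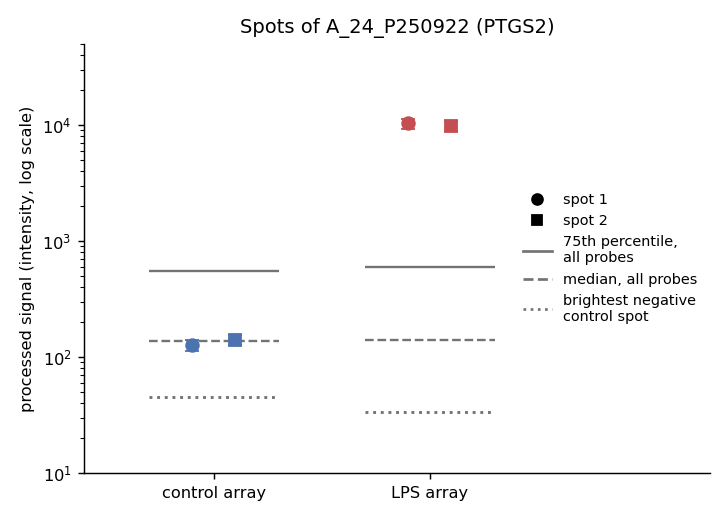
Processed signal of each spot of A_24_P250922 (y axis, intensity on a log scale) on the control and the LPS array, with the scanner software's error as bars, beside the median and the 75th percentile over all probes and the brightest negative control spot of each array. The control spots, at 126.4 and 140.8, lie at the array's median of 138.4, whereas the LPS spots, at 10327.5 and 9903.3, lie well above the 75th percentile of 599.8.

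No flag cast doubt on any of the 4 spots. All 4 were marked positive and significant and well above background, and 0 of them were saturated, flagged as an outlier for the spot or its local background, or flagged by hand. The brightest raw spot on the LPS array, 11018, was 1.42% of the saturation level. On the control array the dimmer spot was still above the brightest of the 600 negative control spots there, which reached 45.51. The control level was thus above background and not a floor, and the fold change is not a bound set by detection. Of all probes on the control array 91.7% were detected. How much of the probe's control signal came from PTGS2 transcript was not tested.

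The local background next to the spots was almost the same on both arrays. At the first spot its median was 19 in the control and 20 with LPS, and at the second it was 16 and 18. The raw median intensity of the spots, before any subtraction, was 163 and 141 on the control array, 8.58 and 8.81 times the local background. On the LPS array it was 11018 and 9062, or 551 and 503 times the local background. The rise was therefore present in the raw spot intensity, which was 67.6 times higher on the LPS array at the first spot and 64.3 times higher at the second. The spot widths, 24.4 and 22.5 on the control array and 22.7 and 22.5 on the LPS array, were a little under the medians of 24.4 to 25.1 among spots of like signal.

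The scanner software's correction of spatial trends moved the spots on both arrays in the same way. It multiplied the background-subtracted signal by 0.934 at the first spot and 1.15 at the second on the control array, and by 0.944 and 1.09 on the LPS array. On the LPS array this brought the spots closer to each other, the higher being 1.20 times the lower before the correction and 1.04 times after it. On the control array the higher spot was 1.11 times the lower after the correction, and the order of the spots had turned. The difference between the arrays at the same place changed little, from 6.34 to 6.35 (log2) at the first spot and from 6.22 to 6.14 at the second.

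To compare probes, a probe's level was taken as the mean log2 signal of its spots minus the 75th percentile over all probes of that array. On this scale the probe was at -2.04 ± 0.11 (SD, 2 spots) on the control array, a geometric mean signal of 133.4. On the LPS array it was at 4.08 ± 0.04 (SD, 2 spots), a geometric mean of 10113.1. The control level was 0.244 times the 75th percentile of that array and the LPS level 16.9 times that of its own. The spot SDs were ordinary for their signal. Over probes with 2 spots and a like level, the median SD was 0.08 for the control (6592 probes) and 0.05 for LPS (714 probes).

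The difference, LPS minus control, was 6.11 ± 0.12 (log2, SD from the spots of both arrays), which is 69.1-fold. Taken spot by spot, it was 6.22 at the first place and 6.00 at the second, each with a scanner error of 0.21. The places are 327 rows and 105 columns apart on a layout of 1064 rows and 170 columns. Without scaling the difference was 6.24, or 75.8-fold, because the 75th percentile was 0.13 (log2) higher on the LPS array. Over all probes, 543 or 0.723% were at least 2-fold higher on the LPS array, and 11473 or 15.3% were at least 2-fold lower. Both counts depend on the processing. They were 2827 higher and 3610 lower under quantile normalization and 1648 and 4165 under cyclic loess. With the normexp background correction, which also adds an offset of 50 to every intensity, they were 312 and 1314. Since this contrast chose the probe, nothing follows from its being among the higher probes.

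Among all 75149 probes A_24_P250922 had the second largest difference. The probe ranked first, at 7.59, had a control signal of 15.6, with 1 of its 2 control spots well above background and 1 of its LPS spots set aside by an outlier flag. The third was at 5.73. Among the 61465 probes well above background on both arrays, A_24_P250922 ranked first, and the next probe was 1.15 lower, at 4.96. Of these 61465 probes, 504 had a difference of at least 1 (log2), 93 of at least 2, 27 of at least 3, 5 of at least 4, and A_24_P250922 was the 1 probe at 5 or above. The median of this set was -0.05, and its 99th percentile was 0.92.

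**Figure D2:**
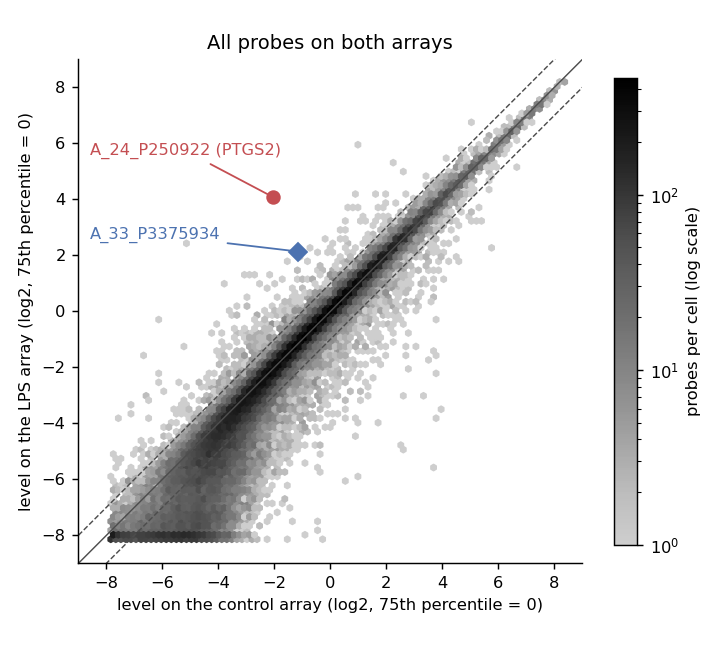
Level of each of 75149 probes on the control array (x axis) and on the LPS array (y axis), both log2 with the array's 75th percentile at 0; grey cells are darker where they hold more probes, and the lines mark equal levels and 2-fold differences. A_24_P250922, at -2.04 and 4.08, stands apart from the diagonal, and the probe nearest to it, A_33_P3375934, lies 2.13 away at -1.15 and 2.14. Since A_24_P250922 was chosen by its difference, a place apart was largely fixed in advance.

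In signal, the probe went from the middle of the array to its upper end. The signal of a probe also depends on how well that probe hybridizes, so ranks among probes order array signals and not amounts of transcript. On the control array it ranked 38102 of 75149 from the brightest, with 49.3% of probes dimmer. On the LPS array it ranked 1355, with 98.2% of probes dimmer. Among the 34235 probes whose names start with A_, the form of name it shares, the ranks were 21684 and 828. The single spots gave the same picture, with 49.8% and 51.9% of all non-control spots dimmer on the control array and 98.3% and 98.2% on the LPS array. Of all probes, 8 gained more places than its 36747, and 0 of these 8 were as bright as A_24_P250922 on the LPS array.

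The position of A_24_P250922 was set against probes that started from the same level. On the control array, 10102 other probes lay within 0.5 (log2) of it. Their median difference was -0.08 with an SD over probes of 0.63. At least 2-fold higher on the LPS array were 93 of them, or 0.921%, and at least 2-fold lower were 710, or 7.03%. The largest difference among the 10102 was 3.45, against 6.11 for A_24_P250922, and it was the same with the band narrowed to 0.25, which held 5079 probes. The place of A_24_P250922 beyond this band was largely fixed in advance, because this contrast chose the probe.

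The same comparison, with the same limit, was made from the LPS side. On the LPS array, 991 other probes lay within 0.5 of A_24_P250922, and their median difference from the control array was 0.06 with an SD over probes of 0.36. At least 2-fold higher on the LPS array were 12 of them and at least 2-fold lower 3, and the largest difference was 3.31. Of the 1354 probes brighter than it on the LPS array, 13 were at least 2-fold higher there than on the control array, and the median difference was 0.01. The largest difference among the 1354 was 4.96.

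**Figure D3:**
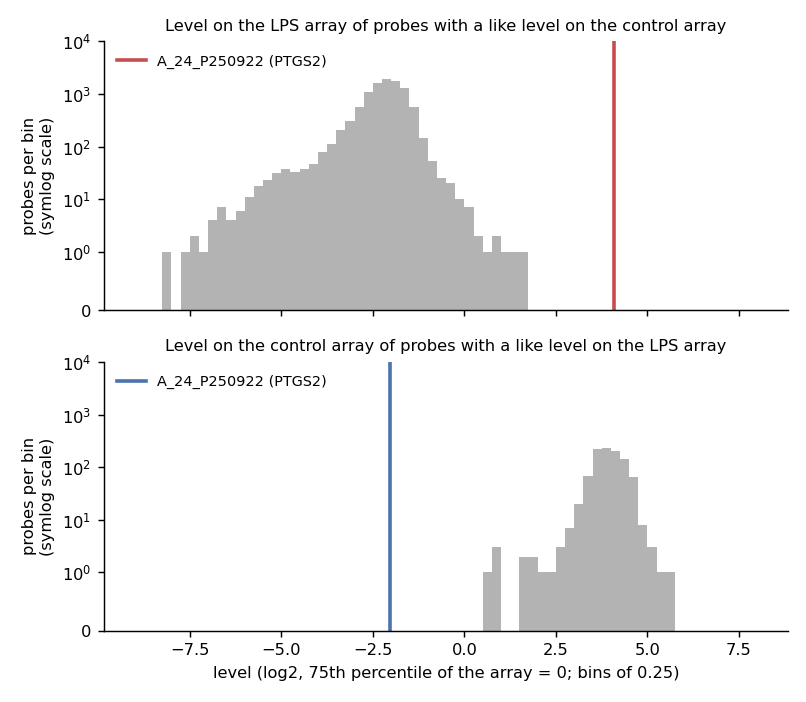
Number of probes (y axis, symlog scale) by their level on the other array (x axis, log2 with the 75th percentile at 0), for the 10102 probes within 0.5 of A_24_P250922 on the control array (top) and the 991 probes within 0.5 of it on the LPS array (bottom); the coloured line is A_24_P250922. The line, at 4.08 and at -2.04, lies outside both distributions, whose nearest probes are at 1.75 and 0.64. The probe was chosen by its difference, so a place outside was largely fixed in advance.

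No other probe came close to the same pair of levels, which was largely fixed in advance because this contrast chose the probe. By the distance between probes over both scaled log2 levels, 0 probes lay within 2 of A_24_P250922 and 27 lay within 3. The nearest was A_33_P3375934, which the files pair with no gene, at a distance of 2.13. Its spots were at 230.1 and 262.3 on the control array and at 2289.2 and 2639.8 on the LPS array, where the lower spot was set aside by an outlier flag. Its difference was 3.29, or 9.80-fold, and it ranked 30 of all probes by difference. A likeness over 2 arrays says nothing of a shared function.

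The rise was not shared by the surroundings of the spots on the slide. Within 10 rows and 10 columns of the first spot, 425 non-control spots without an outlier flag had a median difference of -0.17 after scaling, and 10% of them were above 0.27. Around the second spot, which is near the edge of the array, 312 such spots had a median of -0.21, and 10% were above 0.23. Both spots of A_24_P250922 had the largest difference in their window. This was largely fixed by the choice of the probe, as its spots ranked 2 and 5 of 170515 unflagged spots by difference. The next largest difference was 5.25 in the first window, where the following one was 2.13, and 2.58 in the second window. The median signal of the neighbouring spots around the first spot was 117.9 in the control and 108.0 with LPS, and around the second it was 112.6 and 105.1.

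**Figure D4:**
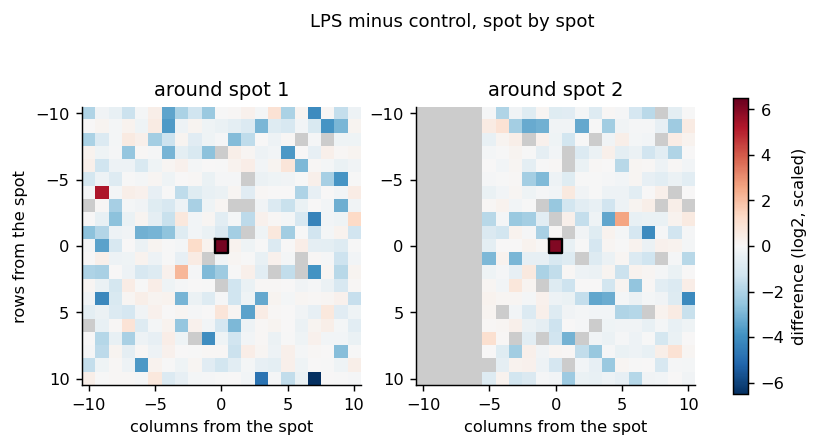
Difference between the arrays at each place (colour, LPS minus control, log2 after scaling) within 10 rows and 10 columns of the first spot (left) and the second spot (right) of A_24_P250922, which is outlined at the centre; grey places hold control spots, spots with an outlier flag or no spot. The outlined spots are at 6.22 and 6.00, among neighbours with medians of -0.17 and -0.21. The highest neighbour is at 5.25 in the first window and at 2.58 in the second.

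Across the whole array, the 25th percentile of the probe signals was 39.55 in the control and 25.04 with LPS, and 82.4% of probes were detected there against 91.7% on the control array. The median difference over all probes was -0.13. The difference of A_24_P250922 was 6.11 with the scaling used above, 6.16 under quantile normalization and 6.07 under cyclic loess. With plain background subtraction it was 6.09. With the normexp background correction, which also adds an offset of 50 to every intensity, it was lower, at 5.66. Beyond such alternatives, how far this shift between the arrays touches the value of A_24_P250922 was not tested. Other genes of the prostaglandin pathway, among them PTGS1, the prostaglandin E synthases and the prostaglandin receptors, were not analysed here, because no probe could be paired with them.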

How the data were processed

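Total RNA of THP-1 cells was measured on 1 control and 1 LPS array. For each array the authors deposited the spot table of Agilent Feature Extraction 11.5.1.1, with the intensity of each spot, from which that software had removed background and spatial trends, the error of that intensity and flags of 0 or 1 per spot, without scaling between the arrays. A second table, also deposited by the authors, held 1 processed intensity per probe and array, with a normalization not given in the sources used here. It served for 1 alternative count and, as used here, had no row for A_24_P250922. In the control column 97.1% of its values, and in the LPS column 96.9%, lay within 0.001 (log2) of the unscaled mean over all spots of the probe.

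Here, non-control spots were used, without those carrying an outlier flag (1.71% and 1.93% of them) unless a probe had no other, log2 intensities were averaged per probe, and the 75th percentile over the 75149 probes was subtracted per array. A probe was detected where most of its spots used were well above background. A probe was called at 2-fold, and where 1 array was below background the fold was taken against the lowest detected signal there. A rank of 1 is the highest value. Ranks and band comparisons used the differences as measured. No p-value was computed, since precision is limited by the number of arrays. The summary was tested on simulated spots of the same layout, with changes planted in probes above the median control level. Noise was the same at all levels and every probe was taken as detected, so the detection rule and changes in dimmer probes were not tested. By rule, the probe itself and the 1 probe nearest to it over both levels are named; no table paired probes with genes, so a planned list of prostaglandin pathway genes and lists of cell type markers were not used. The probe, these lists and the alternatives were chosen with earlier results of these data known, and the promoter motifs and the window of neighbouring spots after the data were seen. Alternatives covered background correction, normalization, outlier flags, averaging, single spots, detection and threshold. Python 3.11.15, numpy 2.4.6, pandas 2.3.3, scipy 1.17.1, matplotlib 3.10.9, R 4.3.3 and limma 3.58.1 were used.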

Additional observations from a re-analysis of the deposited data

How the results depend on the processing

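The difference of A_24_P250922 was 6.11 (log2) and stayed between 5.66 and 6.24 under the 14 alternatives run. In 11 of them it moved by less than the spot SD of 0.12, among them the 4 that left out 1 spot, which gave 6.03 to 6.19. It moved further with the normexp background correction (5.66, offset 50), with scaling to the 50th percentile (6.23) and with no scaling (6.24). Its rank by difference was 2 of all probes, and between 1 and 3 under 11 alternatives. It was 1 with normexp and 1 among probes well above background on both arrays. Its rank by level lay between 37623 and 38807 on the control array and between 1350 and 1366 on the LPS array under 7 alternatives. In 1 of these only the 61465 probes well above background on both arrays were ranked, and the ranks there were 38077 and 1355. The number of probes at least 2-fold higher, 543, became 312 with normexp, 2827 with quantile normalization, 1648 with cyclic loess, 108 at 4-fold and 1794 at 1.5-fold, and the other 9 alternatives were within 1.5 times of it. The share of lower calls, 95.5%, fell to 56.1% under quantile normalization, 71.6% under cyclic loess and 80.8% with normexp, and was 90.1% to 96.9% under the others. The value table gave no value for the probe, and the lower bound for an undetected control level was not needed. No paired analysis was possible because each condition has a single array. The probe was well above background on both arrays. Its difference was 6.09 with plain background subtraction and 5.66 with normexp, which also adds an offset of 50 to every intensity. How much of the lower normexp value came from this offset was not tested. The missing replicate limits every difference.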
